A study of Mus musculus with 6 samples.

Results

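The genes that carry calcium out of the cytoplasm of brainstem cells were followed in *Hoxa5* control and *Hoxa5* cKO mice. They comprised 8 genes: the plasma membrane calcium pumps *Atp2b1*, *Atp2b2*, *Atp2b3* and *Atp2b4*, the endoplasmic reticulum pump *Atp2a2*, and the sodium-calcium exchangers *Slc8a1*, *Slc8a2* and *Slc8a3*. They were chosen by name as the pumps and exchangers of these families, not by their values, though with earlier results of these data known. Each was looked up by its symbol in the authors' assembly, which held 34632 loci, 23985 of them with a gene name. All 8 were found, each as a locus of its own that no other locus of the assembly overlapped, and all 8 were among the 21854 loci that passed the filter on low counts.

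Both groups were *Hoxa5*flox/flox mice, treated with tamoxifen once a day from P1 to P4 and taken at P21, and both came from crosses that give the 2 genotypes within a litter, on a mixed genetic background. The *Hoxa5* cKO mice (*Hoxa5*flox/flox;*CMV-CreERT2*+/-) carried the tamoxifen-activated Cre recombinase under the CMV promoter, which is not restricted to neurons or to the brainstem, and the *Hoxa5* control mice (*Hoxa5*flox/flox;*CMV-CreERT2*-/-) lacked it. The presence of Cre and the deletion it makes therefore cannot be told apart. RNA of whole brainstems was sequenced after depletion of ribosomal RNA in 3 libraries per group, each from a pool of 3 brainstems, and the libraries held 12034613 to 13202707 fragments. In bulk tissue, fewer cells of a type and less RNA per cell cannot be told apart.

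The targeted locus did not follow the labels in every library. In the assembly *Hoxa5* is joined with *Hoxa6* and *2700086A05Rik* into 1 locus, which held 202, 337 and 77 fragments in the libraries labelled control and 279, 57 and 63 in those labelled cKO (log2 fold change -0.62, SE 0.48, edgeR adjusted p = 0.893). Control replicate 3 and cKO replicate 1 thus went against their labels at this locus, and "control" and "cKO" stand here for the labels. Across all loci tested, edgeR called 116 (0.531%) at an adjusted p under 0.05, with 110 below and 6 above control. Markers of hindbrain neurons, such as the serotonin-synthesis enzyme gene *Tph2* (41.8 ± 4.25 CPM in control and 47.8 ± 8.52 in cKO, SD, n = 3) and the vesicular glutamate transporter *Slc17a6* (258 ± 9.40 and 265 ± 19.7), were present in every library. CPM are fragment counts scaled to a common library size after TMM normalization.

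Calcium is kept far lower in the cytoplasm than outside the cell or inside the endoplasmic reticulum, and each opening of a calcium channel has to be followed by removal. Plasma membrane pumps, known as PMCA, hydrolyse ATP to push calcium out with high affinity, and the endoplasmic reticulum pump, SERCA, uses the same chemistry to fill the internal store. Sodium-calcium exchangers, known as NCX, have a lower affinity and a higher capacity: they let sodium in and carry calcium out, and so lean on the gradient that the sodium pump maintains. In neurons both systems work in dendrites, spines and presynaptic terminals.

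The families differ in how they drive transport, and the coding sequences below show, for some of the genes, the piece that carries it. All 5 pumps are P-type ATPases, which pass through a state in which an aspartate holds a phosphate taken from ATP. In the 45-base windows of 3 of the pumps, given 5′ to 3′ on the coding strand, the capitals mark the 15 bases that begin with the codon of this aspartate.
Atp2b1: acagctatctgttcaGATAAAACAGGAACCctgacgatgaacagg
Atp2b2: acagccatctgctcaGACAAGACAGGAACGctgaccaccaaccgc
Atp2b4: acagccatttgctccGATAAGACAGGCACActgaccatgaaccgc
In the 48-base windows of the exchangers the capitals mark 18 bases of a conserved stretch in the first of the repeats that form the path of the ions.
Slc8a1: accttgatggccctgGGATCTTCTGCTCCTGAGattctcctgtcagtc
Slc8a2: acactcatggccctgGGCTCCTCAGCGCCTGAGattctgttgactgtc
Slc8a3: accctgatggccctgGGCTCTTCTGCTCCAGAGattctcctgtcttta

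These windows were read from the GENCODE M21 transcripts (GRCm38, the mm10 build of the files), and each lies within 1 coding exon. For the pumps they are *Atp2b1* at chr10:98999802-98999846 (plus strand, exon 10), *Atp2b2* at chr6:113789888-113789932 (minus strand, exon 13) and *Atp2b4* at chr1:133731798-133731842 (minus strand, exon 10). For the exchangers they are *Slc8a1* at chr17:81649158-81649205 (minus strand, exon 1), *Slc8a2* at chr7:16134238-16134285 (plus strand, exon 2) and *Slc8a3* at chr12:81315588-81315635 (minus strand, exon 2). The pump windows of *Atp2b2* and *Atp2b4* differed at 7 bases, and that of *Atp2b1* differed from each of these at 10. The exchanger windows of *Slc8a1* and *Slc8a3* differed at 6 bases, and that of *Slc8a2* differed from each of the others at 11.

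Outside such conserved stretches the genes are distinct. No word of 75 bases was common to the transcripts of any pair of the 8 genes. Words that also occur in transcripts of other genes made up 2.61% of those of *Atp2a2* and 0.546% of those of *Atp2b1*, 0.0417% of those of *Atp2b4* and 0% of those of the other 5, *Slc8a2* among them. The genes span very different stretches of the genome, from 31.2 kb for *Slc8a2* to 365 kb for *Slc8a1*, while their coding sequences are of similar size, with 1205 to 1243 codons for the PMCA genes, 1044 for *Atp2a2* and 921 to 970 for the exchangers.

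All 8 genes were expressed at P21, over a 17.5-fold range of FPKM (fragments scaled to transcript length and library size, which allows levels of genes of unequal length to be set side by side). *Atp2a2*, which encodes SERCA2, was the highest at a mean of 174 FPKM over the 6 libraries, above 98.9% of the loci tested. *Atp2b2*, the PMCA2 gene known for its part in hearing and in cerebellar neurons, came next with 97.4 FPKM. *Atp2b1* (36.8), *Atp2b3* (34.3) and *Slc8a1* (33.8) lay close together, followed by *Slc8a3* (17.2), *Atp2b4* (11.2) and *Slc8a2* (9.93).

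This order was clear at some steps only. The ranges over the 6 libraries did not overlap between *Atp2a2* and *Atp2b2*, between *Atp2b2* and *Atp2b1*, between *Slc8a1* and *Slc8a3*, or between *Slc8a3* and *Atp2b4*. They did overlap between *Atp2b1* and *Atp2b3*, *Atp2b3* and *Slc8a1*, and *Atp2b4* and *Slc8a2*, so the order within these pairs was not beyond their spread. Each gene was deeply covered, with 378 fragments in the poorest library of the least covered gene (*Slc8a2*) and 11612 in the richest of the best covered (*Atp2a2*).

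**Figure D1:**
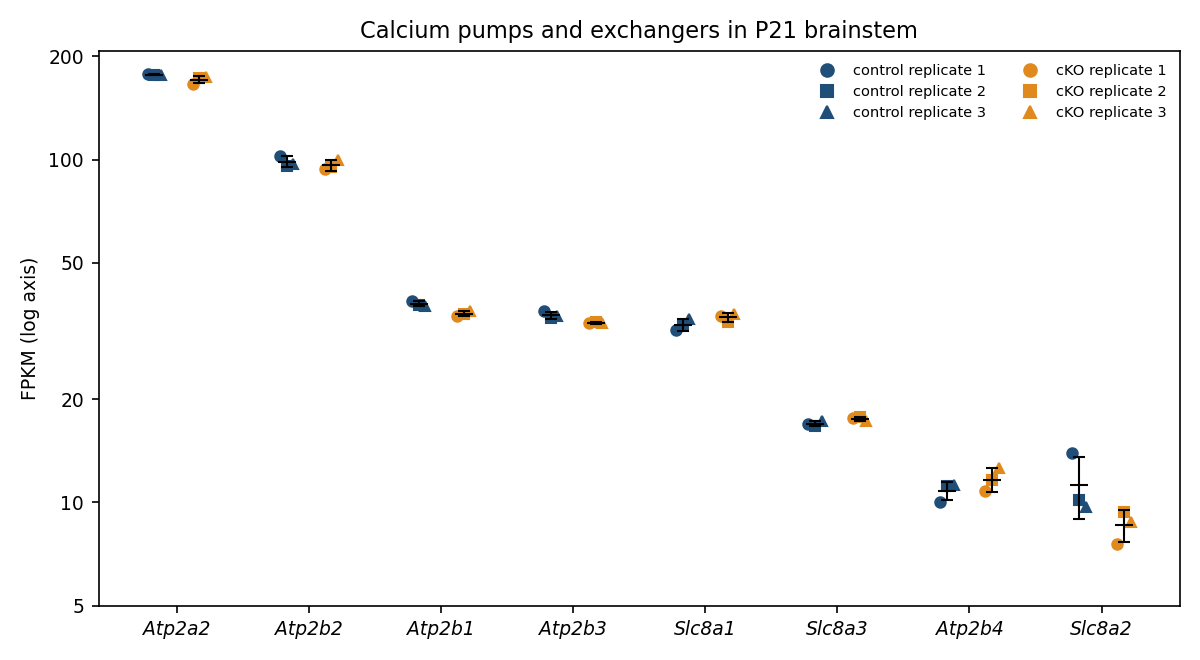
FPKM (log axis) of the 8 genes in each of the 6 libraries, with 1 point per library, control and cKO side by side, and black bars for the mean ± SD of each group. *Atp2a2* (174 FPKM over the 6 libraries) and *Atp2b2* (97.4) stand above the rest, the groups lie close together for every gene but *Slc8a2*, and there control replicate 1 (13.9) and cKO replicate 1 (7.58) are the ends.

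By genotype, none of the 8 genes passed edgeR's test at an adjusted p under 0.05, against 0.531% of all loci tested. At an unadjusted p under 0.05, 1 of 8 was lower in cKO (*Slc8a2*; 4.03% of all loci) and none was higher (2.91%). By DESeq2 there were likewise no calls and 1 gene at an unadjusted p under 0.05. The log2 fold change was below 0 for 5 genes and above 0 for 3, with a median of -0.04 against 0.0034 over all loci.

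Control and cKO libraries did not overlap in CPM for 4 of the 8 genes. *Atp2b1*, *Atp2a2* and *Slc8a2* were lower in every cKO library, which holds for 6.54% of all loci, and *Slc8a3* was higher in every cKO library, which holds for 5.61%. For *Atp2b1*, *Atp2a2* and *Slc8a3* the gap was small. Leaving out *Slc8a2*, the 95% intervals of the change in the other 7 genes ran from -11.3% at the lowest to 17.4% at the highest.

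**Figure D2:**
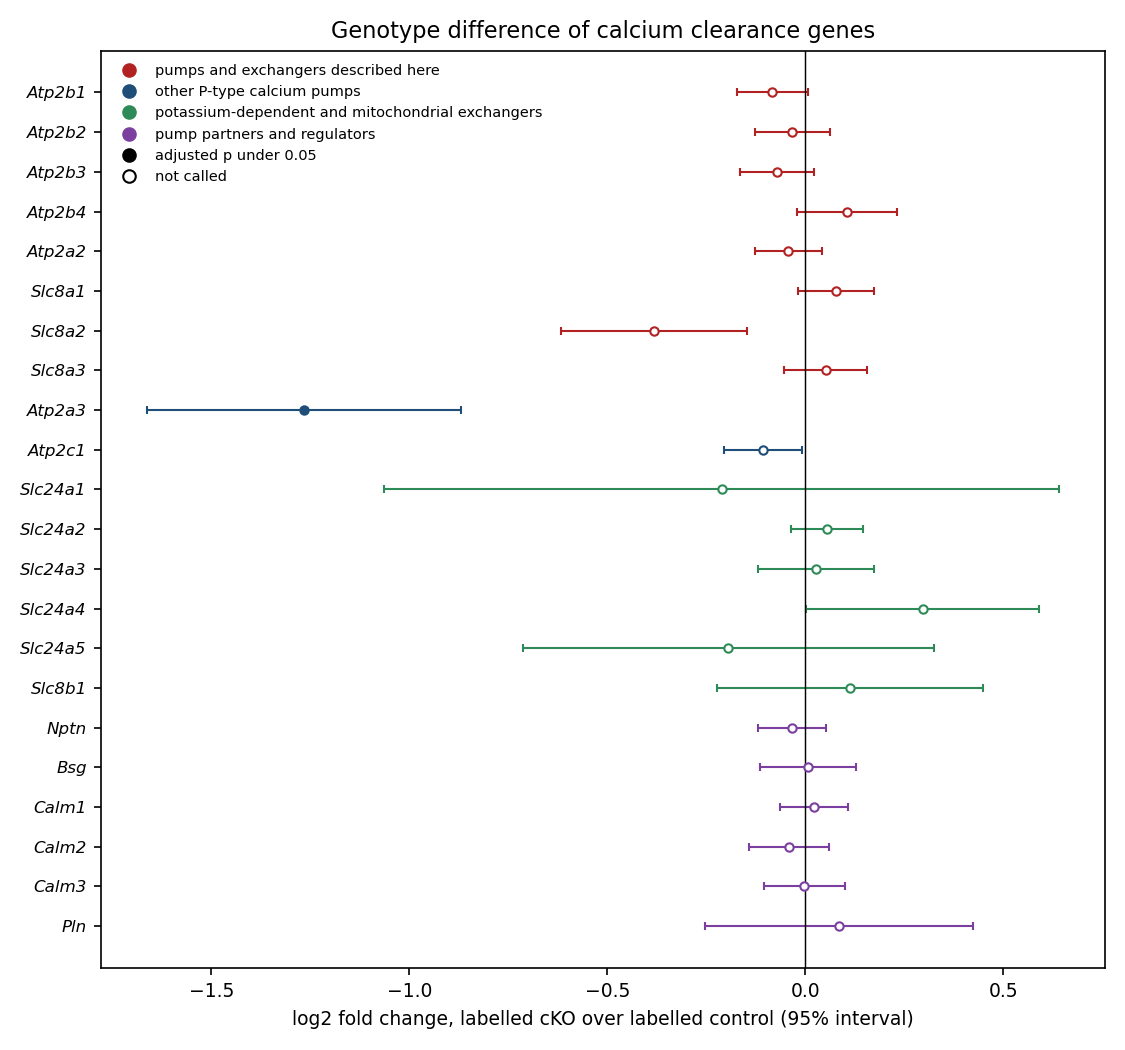
Log2 fold change of cKO over control by edgeR for the 8 genes and the tested genes of the lists of other calcium pumps, other exchangers and pump partners, coloured by list, with 95% intervals and a filled point where the adjusted p was under 0.05. Of the 8 genes, the 7 genes other than *Slc8a2* lie between -0.08 and 0.11 with intervals that include 0, *Slc8a2* lies at -0.38 with an interval that does not include 0, and the filled point at -1.27 is *Atp2a3*, of another list.

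Among the pumps of the plasma membrane, *Atp2b1*, on chr10:98914394-99026143 (plus strand), encodes PMCA1, the form found in most cell types. It had 38.7, 37.6 and 37.5 FPKM in the control libraries and 34.9, 35.5 and 36.3 in cKO. Every cKO library was below every control library, but by little, and the change of -5.58% (95% interval -11.3% to 0.466%, log2 fold change -0.08, SE 0.04) did not pass the test (edgeR adjusted p = 0.774).

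*Atp2b2*, on chr6:113743549-114042286 (minus strand), had 102.8, 95.9 and 97.2 FPKM in control and 93.7, 94.9 and 100.1 in cKO. The groups overlapped, since the highest cKO library lay above the lower pair of control libraries. PMCA2 is abundant in Purkinje and granule neurons of the cerebellum, and its change was -2.25% (95% interval -8.47% to 4.39%, log2 fold change -0.03, SE 0.04, edgeR adjusted p = 0.943).

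*Atp2b3*, on chrX:73503053-73573179 (plus strand), is the X-linked member and encodes PMCA3, a form largely restricted to the nervous system. It had 36.2, 34.4 and 34.9 FPKM in control and 33.3, 33.7 and 33.3 in cKO. The groups did not overlap in FPKM but did in CPM, and the change of -4.77% (95% interval -10.7% to 1.59%) did not pass the test (edgeR adjusted p = 0.853). The libraries differed in Y-linked RNA: the summed fragments of 4 Y-linked genes were 3 in cKO replicate 1 and 1069 to 1734 in the other 5 libraries, and *Atp2b3* in that library, at 33.3 FPKM, lay beside cKO replicate 3.

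*Atp2b4*, on chr1:133702171-133801011 (minus strand), encodes PMCA4 and was the lowest of the plasma membrane pumps. It had 10.1, 11.1 and 11.2 FPKM in control and 10.8, 11.6 and 12.6 in cKO. Of the pumps, this was the gene with a fold change above 0, at 7.62% (95% interval -1.37% to 17.4%, log2 fold change 0.11, SE 0.06), but the groups overlapped and the test was not passed (edgeR adjusted p = 0.805). Its log2 fold change came to 0.05 when cKO replicate 3 was left out, to 0.06 when control replicate 1 was, to 0.16 when cKO replicate 1 was, and to 0.18 without both libraries that went against their labels at the *Hoxa5* locus (edgeR adjusted p = 0.250).

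The endoplasmic reticulum pump *Atp2a2*, on chr5:122453513-122502322 (minus strand), refills the store from which calcium is released by inositol trisphosphate and ryanodine receptors. Its level was 177, 176 and 177 FPKM in control and 166, 173 and 174 in cKO. The control libraries were nearly equal, with an SD of 0.626 FPKM, and cKO replicate 1 was the lowest. The change was -2.92% (95% interval -8.42% to 2.90%, log2 fold change -0.04, SE 0.04, edgeR adjusted p = 0.906).

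Of the exchangers, *Slc8a1*, on chr17:81372913-81738377 (minus strand), encodes NCX1, the form of the heart that many neurons and glia also make. Its level was 31.7, 33.0 and 34.3 FPKM in control and 34.9, 33.5 and 35.5 in cKO. The groups overlapped, and the change was 5.46% (95% interval -1.33% to 12.7%, log2 fold change 0.08, SE 0.05, edgeR adjusted p = 0.834).

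*Slc8a3*, on chr12:81197915-81333732 (minus strand), encodes NCX3, which is made in brain and skeletal muscle. Its level was 17.0, 16.7 and 17.2 FPKM in control and 17.6, 17.7 and 17.3 in cKO. All cKO libraries were above all control libraries, by a narrow margin, and the change of 3.64% (95% interval -3.62% to 11.4%, log2 fold change 0.05, SE 0.05) did not pass the test (edgeR adjusted p = 0.909).

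*Slc8a2*, on chr7:16130216-16162037 (plus strand), encodes NCX2, the form found mostly in the brain, and had both the smallest p and the widest range of the 8 genes. Its fragments were 722, 554 and 555 in control and 378, 539 and 493 in cKO, and its FPKM were 13.9, 10.2 and 9.69 in control and 7.58, 9.41 and 8.79 in cKO. Every cKO library was below every control library, yet control replicate 3 and cKO replicate 2 nearly met. On average it was 23.3% lower in cKO (95% interval -34.8% to -9.63%, log2 fold change -0.38, SE 0.11), from 48.7 ± 9.16 to 37.3 ± 5.11 CPM (SD, n = 3).

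This difference did not pass the test over all loci (edgeR adjusted p = 0.242, unadjusted p = 0.00329). It passed when no filter on low counts was used (log2 fold change -0.38, edgeR adjusted p = 0.0271), and over all the alternatives its adjusted p ranged from 0.0271 to 1.0 and its log2 fold change from -0.48 to -0.22. The end of the range nearest to 0 came without control replicate 1 (-0.22, edgeR adjusted p = 1.0). Without cKO replicate 1, the lowest library of *Slc8a2* and the one nearly without Y-linked RNA, the log2 fold change was -0.28 (edgeR adjusted p = 0.359). Without control replicate 3 and cKO replicate 1, the libraries that went against their labels at the *Hoxa5* locus, it was -0.38 (edgeR adjusted p = 0.105).

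The 8 genes also differed in how far replicates of 1 group lay apart. The pooled SD of log2 CPM within groups was 0.02 for *Atp2b1*, *Atp2a2* and *Slc8a3*, which put these at the 3.75, 4.76 and 3.09 percentile among loci of similar level (720, 84 and 2134 loci). For *Atp2b1* the coefficient of variation within groups was 1.39%, below the 1.76% that counting of fragments alone gives. *Slc8a2* was at the other end, with an SD of 0.23, at the 99.1 percentile of 2864 loci of similar level, and a coefficient of variation of 16.4% where counting gives 4.30%. *Atp2b4* (SD 0.09, 79.7 percentile) came next, and *Atp2b2* (0.06), *Slc8a1* (0.06) and *Atp2b3* (0.04) lay between.

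**Figure D3:**
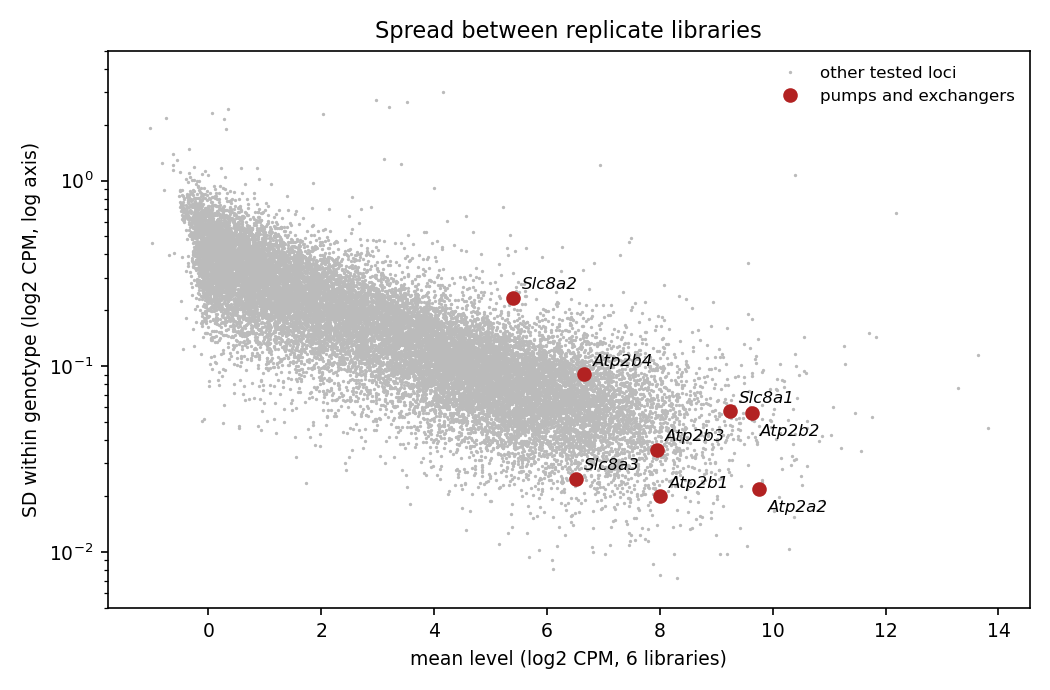
Pooled SD of log2 CPM within genotype (log axis) against mean level (log2 CPM) for all loci tested, with the 8 genes marked. *Slc8a2* (SD 0.23) lies near the upper edge of the cloud at its level, while *Atp2b1*, *Atp2a2* and *Slc8a3* (0.02) lie near the lower edge.

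Expressed as shares of their own family, which do not depend on the scaling between libraries, the PMCA genes gave a similar mixture in all libraries. *Atp2b2* made up 54.0% ± 0.643 of the summed PMCA FPKM in control and 54.4% ± 0.445 in cKO (SD, n = 3), *Atp2b3* 19.3% ± 0.0389 and 18.9% ± 0.540, *Atp2b1* 20.8% ± 0.186 and 20.1% ± 0.174, and *Atp2b4* 5.93% ± 0.499 and 6.59% ± 0.339. The shares of *Atp2b1* (a difference of -0.684 percentage points) and *Atp2b4* (0.657 percentage points) did not overlap between groups. Fragments are not scaled to transcript length, so shares of them weigh the genes of a family differently. With fragments in place of FPKM the differences were -0.557 for *Atp2b1*, whose groups then overlapped, and 0.711 for *Atp2b4*, whose groups did not. Without control replicate 1 the FPKM share of *Atp2b4* differed by 0.369. The summed PMCA level was 183 ± 4.57 FPKM in control and 177 ± 4.92 in cKO (exact permutation test, two-sided p = 0.3).

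Within the exchangers the mixture varied more. *Slc8a2* made up 22.2%, 17.0% and 15.8% of the summed NCX FPKM in control and 12.6%, 15.5% and 14.3% in cKO, a difference of -4.23 percentage points. It was -2.29 without control replicate 1. With fragments in place of FPKM it was -1.74, and the groups overlapped. Shares of fragments are not scaled to transcript length, so the sizes of differences in them and in FPKM shares cannot be compared directly. *Slc8a1* held 53.9% ± 2.87 in control and 57.03% ± 1.499 in cKO, and *Slc8a3* 27.7% ± 0.549 and 28.8% ± 0.709 (SD, n = 3). These differences were 3.09 and 1.14 percentage points in FPKM shares, and 1.69 and 0.0459 in shares of fragments. In FPKM shares that of *Slc8a1* was 1.45 without control replicate 1. Since shares of a family sum to a fixed total, a lower share of 1 gene raises the others, and the summed NCX level itself was 61.2 ± 1.41 FPKM in control and 60.8 ± 0.715 in cKO (exact permutation test, two-sided p = 0.7).

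No share passed its test. Over the 7 shares the exact two-sided permutation p was 0.1 for *Atp2b1*, *Atp2b4* and *Slc8a2*, which is the smallest that 3 libraries against 3 can give, and 0.233 after Benjamini-Hochberg adjustment. For the other 4 it was 0.2 to 0.5 (adjusted 0.28 to 0.5). With fragments in place of FPKM, the exact permutation p was 0.3 for *Atp2b1*, 0.1 for *Atp2b4* and 0.2 for *Slc8a2*. The design cannot reach 0.05 in this test.

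**Figure D4:**
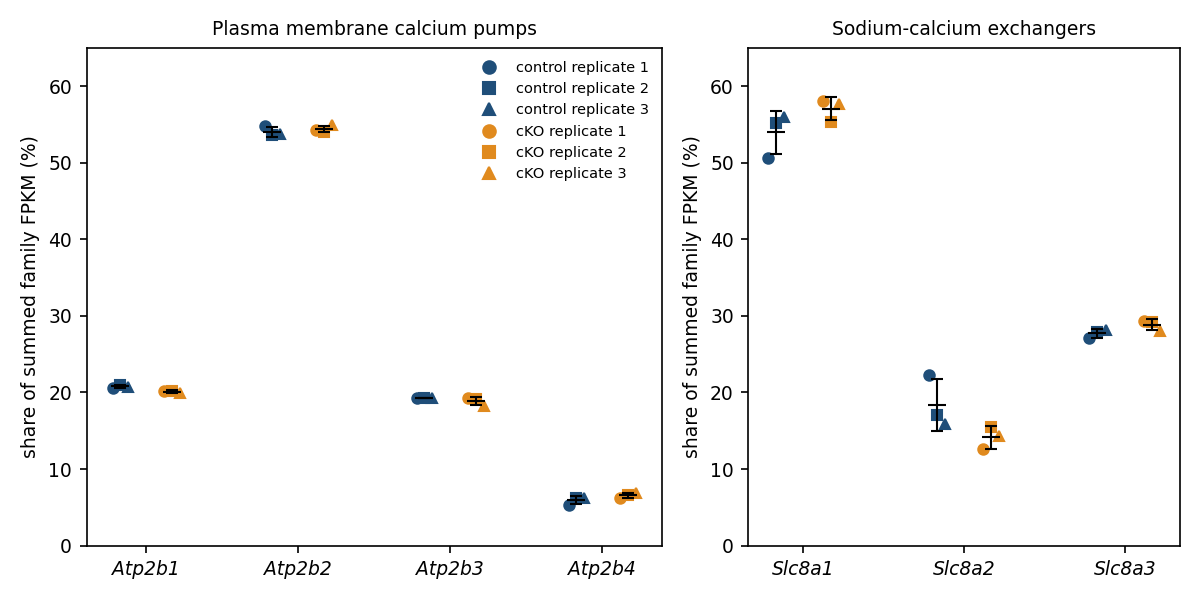
Share of each gene in the summed FPKM of its family (percent), for PMCA genes and for exchangers, with 1 point per library and black bars for the mean ± SD of each group. The PMCA shares are nearly the same in all libraries, and among the exchangers *Slc8a2* reaches from 12.6% in cKO replicate 1 to 22.2% in control replicate 1.

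The libraries also differed in genes used here as markers of cerebellar cell types, though only whole brainstem was sequenced. The paper describes *Gabra6* in some precerebellar nuclei as well as in granule cells, and treats it as a candidate HOXA5 target. Of 7 granule neuron markers, 5 were called lower in cKO by edgeR (for example *Gabra6*, a GABA receptor subunit of granule neurons, log2 fold change -1.93, SE 0.19, edgeR adjusted p = 8.1e-05), and their summed level was 571, 380.0 and 294 CPM in control and 109, 141 and 117 in cKO. Of 7 Purkinje cell markers 4 were called lower (for example *Pcp2*, log2 fold change -1.81, SE 0.23, edgeR adjusted p = 0.000676), with sums of 324, 185 and 213 CPM in control and 114, 146 and 131 in cKO. Of 3 Bergmann glia markers 2 were called lower (*Gdf10* and *Hopx*), with sums over the list of 273 to 303 and 247 to 288 CPM. Most of these sums was *Sept4* (252 CPM in control and 241 in cKO), which was not called (log2 fold change -0.07, edgeR adjusted p = 0.902). None of these markers was at 0 in any library. The 6 libraries fell into the same order by granule neuron markers, on the mean log2 scale, as by *Slc8a2*: control replicate 1, 2 and 3, then cKO replicate 2, 3 and 1. The other lists gave other orders on that scale. By Purkinje cell markers it was control replicate 1, 3 and 2, then cKO replicate 2, 1 and 3. By Bergmann glia markers it was control replicate 1, 2 and 3, then cKO replicate 1, 2 and 3. The part of these cells in the level of *Slc8a2* was not tested.

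Among the other cell types, none of 6 hindbrain neuron markers was called by edgeR (median log2 fold change 0.11, sums of 535 to 566 CPM in control and 558 to 601 in cKO), and of the pan-neuronal markers 1 of 4 was (*Rbfox3*, log2 fold change -0.30, SE 0.06, edgeR adjusted p = 0.0205). No marker of astrocytes (4 tested), oligodendrocytes (4), vascular smooth muscle (3, median log2 fold change -0.34), endothelium (3), microglia (3) or choroid plexus (3) was called by edgeR. The choroid plexus markers all had fold changes above 0 (median log2 fold change 0.18), with *Ttr*, which encodes transthyretin, at 0.37 (SE 0.10, edgeR adjusted p = 0.145). The 95% interval of *Atp2b2*, which granule and Purkinje neurons also make, was -8.47% to 4.39% in the same libraries. The part of granule and Purkinje neurons in its level was not tested.

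Across the libraries, the 3 loci most like *Slc8a2* among 14870 loci with a single gene name were *Trim62*, *Rnf182* and *Lingo3*, with root mean square differences of 0.0450, 0.0507 and 0.0591 on centred log2 CPM over 6 libraries. *Trim62*, which encodes a protein of the tripartite motif family, had 291, 221 and 239 fragments in control and 149, 224 and 208 in cKO. All of them were highest in control replicate 1 and lowest in cKO replicate 1. Since they were picked for their likeness to *Slc8a2*, this and fold changes near its own follow from the choice. None was called by genotype (log2 fold changes -0.37, -0.41 and -0.32, edgeR adjusted p = 0.436, 0.316 and 0.531).

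**Figure D5:**
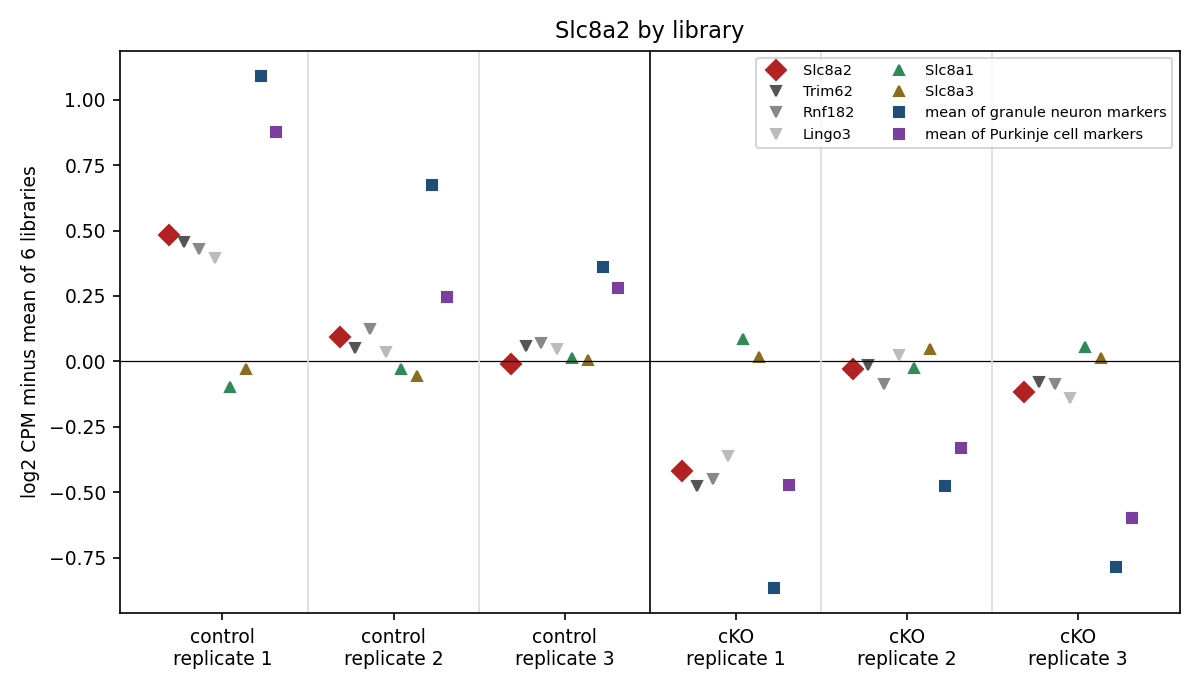
Log2 CPM of each library minus the mean of the 6 libraries, for *Slc8a2*, the other exchangers, the 3 loci with the most similar pattern, and the mean of the granule neuron and Purkinje cell markers, with 1 point per gene or list in each library. *Slc8a2* runs from 0.48 in control replicate 1 to -0.42 in cKO replicate 1, while *Slc8a1* and *Slc8a3* stay between -0.10 and 0.09.

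The other genes of calcium removal were read from 5 lists with 32 genes, of which 31 had a locus and 27 were tested. edgeR called 1 of these lower in cKO and none higher (background 0.503% lower and 0.0275% higher), with a median log2 fold change of -0.0003. At an unadjusted p under 0.05, 4 were lower (*Atp2a3* and *Atp2c1* among them) and 1 higher (*Slc24a4*). Over all loci tested, 4.03% were lower and 2.91% higher at that threshold.

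The gene called was *Atp2a3*, which encodes SERCA3, the endoplasmic reticulum pump that the cerebellum makes in Purkinje cells. It had 427, 261 and 263 fragments in control and 100, 170 and 127 in cKO. Every cKO library was below every control library, and it fell by 1.27 on the log2 scale (log2 fold change -1.27, SE 0.19, 95% interval -1.66 to -0.87, edgeR adjusted p = 0.00309). The call was lost with limma on FPKM (adjusted p = 0.436 and 0.444) and kept under the other alternatives, over all of which the adjusted p ran from 1.99e-07 to 0.444. In the same libraries 4 of the 7 Purkinje cell markers were called lower, while 6 had fold changes below 0 and 1 above. Their sums were 185 to 324 CPM in control and 114 to 146 in cKO. *Rgs8* made up much of these sums, was not called (log2 fold change -0.53, edgeR adjusted p = 0.152) and overlapped between groups. The part of these markers in the level of *Atp2a3* was not tested. In contrast to *Atp2a2*, its level was low, at 4.19 to 7.42 FPKM in control and 1.79 to 2.73 in cKO.

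Of the other P-type calcium pumps, *Atp2c1*, the pump of the Golgi apparatus, differed by -0.11 (log2, SE 0.05, edgeR adjusted p = 0.653). *Atp2a1*, the SERCA gene of skeletal muscle, had 3 to 8 fragments per library and was not tested, nor was *Atp2c2*. None of the 6 potassium-dependent and mitochondrial exchangers was called (median log2 fold change 0.04). *Slc24a4* differed by 0.30 (SE 0.14, edgeR adjusted p = 0.713) and *Slc24a2*, an exchanger of neurons, by 0.05 (SE 0.04, edgeR adjusted p = 0.894).

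The partners of the pumps include calmodulin, which activates PMCA, and neuroplastin and basigin, which are subunits of PMCA complexes. They also include small membrane proteins that act on SERCA, of which only *Pln* was tested. Of the 9 partner genes 6 were tested and none was called, with a median log2 fold change of 0.0021. The smallest p among them belonged to *Calm2* (-0.04, SE 0.05, edgeR adjusted p = 0.933) and the neuroplastin gene *Nptn* (-0.03, SE 0.04, edgeR adjusted p = 0.937).

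Mitochondria take up calcium through the uniporter. Of the 7 genes of mitochondrial calcium uptake none was called, with a median log2 fold change of -0.04, and *Micu3*, a regulator of the uniporter in neurons, differed by -0.04 (SE 0.06, edgeR adjusted p = 0.946). Of the 6 sodium pump subunits, on whose gradient the exchangers depend, none was called either (median log2 fold change 0.03).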

How the data were processed

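The authors called bases with CASAVA 1.6, aligned reads to mm10 with TopHat2 2.0.9, merged transcripts with Cufflinks 2.2.0 and quantified loci with Cuffdiff, as the methods and the submitters' processing notes state. The deposited table gives raw fragment counts per locus and library, and FPKM that the authors scaled between libraries. Cuffdiff's scaled fragments were not used. The kit keeps strand, but the setting used in counting is not given in the sources used here. Replicate numbers are those of the table, counted from 1, and the sources do not tie them to the pools. Each pool came from different animals, and p-values measure the spread between pools.

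Counts were normalized by TMM, filtered with filterByExpr and compared with edgeR 4.0.16 (quasi-likelihood test, Benjamini-Hochberg adjustment, threshold 0.05, common coefficient of biological variation 0.0552) in R 4.3.3 over 21854 loci. This edgeR test stands in for the authors' Cuffdiff test, which was not rerun. Intervals are 95% intervals of the fit. Levels on the log2 CPM scale use a prior count of 2. Family shares were taken from FPKM and compared by exact permutation in scipy 1.17.1. The code was tested on simulated data. Alternatives were other scaling (library size, upper quartile), DESeq2 1.42.0, limma 3.58.1 on log2(FPKM + 1) or log2(FPKM + 0.1) for loci with FPKM of at least 1 in 3 libraries, no filter or at least 50 fragments in 3 libraries, a replicate block, and libraries left out.

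The 8 genes, the lists and the tests were chosen with earlier results of these data known. Genes were named by rule: the 8 genes, *Hoxa5*, genes of the other lists that were called or else the 2 with the smallest p, the 3 loci most like the gene with the smallest p or the widest range, and up to 2 markers per cell type. *Atp2c1*, *Atp2a1*, *Atp2c2*, *Pln*, *Rgs8* and *Sept4* were named after their values were seen. In the other lists 7 genes were found under an older name. Some genes that this rule takes in, and some windows of sequence, are not reported here.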

Additional observations from a re-analysis of the deposited data

How the results depend on the processing

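Of 120 values of the 8 genes' log2 fold changes under the alternatives, none reversed, and 119 stayed on the same side of the threshold. The exception was *Slc8a2* without a filter on low counts (-0.38, edgeR adjusted p = 0.0271), where 1 of the 8 genes was called and 221 of all loci. limma on log2(FPKM + 1) and log2(FPKM + 0.1) called 0 and 1 of all loci, with 1298 and 1271 at an unadjusted p under 0.05, and 0 of the other genes of calcium removal in both. A minimum of 50 fragments gave 76 calls over all loci. With each library left out in turn, calls over all loci ranged from 44 (without control replicate 1) to 126 (without control replicate 3), with 65 without cKO replicate 3, calls among the other genes of calcium removal from 1 to 2 (the latter without cKO replicate 1), and calls among the 8 genes stayed at 0. The log2 fold change of *Slc8a2* then ranged from -0.48 to -0.22. That of *Atp2b2* (-0.03 with all libraries) came nearest to 0 at -0.0052 when control replicate 1 was dropped and at -0.0064 when cKO replicate 1 was, and was -0.06 and -0.07 when control replicate 2 or cKO replicate 3 was dropped. *Slc8a1* was at 0.05 without control replicate 1, and *Atp2a2* was at -0.03 without cKO replicate 1. Without control replicate 3 and cKO replicate 1 together, 2 of the other genes were called and 161 of all loci. Where a group was left with fewer libraries, edgeR's estimate of spread came from all that remained.

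The replicate numbers were not shown to pair the libraries: deviations from the group means correlated at 0.03, -0.08 and 0.05 between libraries of the same number. With the replicate number as a block, 130 loci and 0 of the 8 genes were called, and *Slc8a2* stood at -0.38 (edgeR adjusted p = 0.252). With 3 libraries a group, counting precision (0.958% to 4.30% of a gene's level) was not the only limit for genes such as *Slc8a2*, whose replicates differed by more.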

Other observations

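The loci on either side of *Slc8a2* on chromosome 7, chosen after its values were seen, differed less by genotype than *Slc8a2* itself. *Napa*, which encodes the SNAP protein that takes part in recycling SNARE complexes after vesicle fusion, had a log2 fold change of -0.04 (SE 0.05), and *Kptn* one of 0.08 (SE 0.12). On the far side, the homeobox gene *Meis3* had one of 0.11 (SE 0.08) and the helicase gene *Dhx34* one of -0.03 (SE 0.11). None was called (edgeR adjusted p = 0.883 to 0.985), and no difference between these loci and *Slc8a2* was tested.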
